A study of Mus musculus with 8 samples.

Results

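A set of 10 genes of nitric oxide and arginine metabolism were followed in the infarcted mouse heart: the nitric oxide synthases Nos1, Nos2 and Nos3, the cofactor enzyme Gch1, the arginases Arg1 and Arg2, the arginine-regenerating enzyme Ass1, the arginine transporters Slc7a1 and Slc7a2, and Ddah1, which clears a natural inhibitor of the synthases. They are 10 of the 20145 named genes that have a probe on the array. For each gene the probes were those whose annotation in the scanner output is a RefSeq transcript of that gene, and the gene was represented by its brightest probe among those detected well above background by at least 4 of the 8 arrays. Such a probe was retained for 9 of the 10 genes, and for 15156 genes in all.

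The heart tissue came from male C57BL\6 mice killed 24 hours after surgery. In 4 MI mice a coronary artery had been permanently ligated to cause myocardial infarction (MI), and 4 sham-operated mice served as controls. No genetic change is given in the labels, and the age of the animals is not given there. RNA of the ventricles of each mouse was hybridised to 1 array, in 1 colour, so that each replicate is a separate mouse. Levels are given as normalized log2 signals, that is, log2 of the scanner signal plus a small constant of the array, and a difference of 1 on this scale is a 2-fold change.

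Nitric oxide is made from the amino acid arginine by the nitric oxide synthases, which need tetrahydrobiopterin as a cofactor, and it relaxes vessels and alters the contraction of heart muscle through cyclic GMP. Arginases split the same arginine into ornithine and urea, so both kinds of enzyme draw on a common substrate, which enters cells through cationic amino acid transporters or is rebuilt from citrulline. Asymmetric dimethylarginine (ADMA), released from methylated proteins, inhibits the synthases and is broken down by dimethylarginine dimethylaminohydrolases.

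Ventricular RNA holds all cell types of the tissue, so that fewer or more cells of a type and less or more RNA per cell cannot be told apart in any value below. All 10 cardiomyocyte markers, among them Myh6 and Tnnt2, were well above background on all 8 arrays, and 0 of them were called different between the groups. Of 8 measured neutrophil markers, 6 were called higher in MI mice (S100a8, S100a9, Retnlg, Cxcr2, Mmp8 and Ngp), against 4.06% of all genes. Ngp was well above background on only 4 of the 8 arrays and higher in every MI mouse, so its call may carry a selection. The summed linear level of the list, with Csf3r and Camp included, was 203840 to 315940 after MI and 61486 to 80334 after sham surgery. Such sums weigh bright probes most. Csf3r, the brightest of the list in sham-operated mice (mean 15.34), did not differ (log2 fold change 0.08, limma adjusted p = 0.878). Of 8 markers of monocytes and macrophages, 2 were called higher (Ccr2 and Cd14), and the summed level of the list overlapped between the groups, at 18492 to 27588 after MI and 15184 to 22599 after sham surgery. Ptprc, a marker of all leukocytes, was called higher, as was Acta2 among 4 smooth muscle genes (log2 fold change 1.46). Of 4 T cell and 4 B cell markers measured, 0 were called and 3 passed the adjusted p at any fold (Cd3d, Lck and Cd79b, all higher), against 7.74% of all genes. Of 7 fibroblast markers 6 had lower means with 0 passing. The sum over 9 endothelial markers was 33597 to 49576 after MI and 36076 to 50921 after sham surgery, with 0 of the 9 called. The part of these cell types in the changes described below was not tested. All 8 arrays lay on 1 slide, in 2 rows with 2 mice of each group in each row, and the share of spots well above background was between 56.2% and 64.0% per array.

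MI mice had more arginase RNA. Arg1 was 3.19-fold and Arg2 7.02-fold higher than in sham-operated mice, and the transporter Slc7a2 was 2.13-fold higher, although Arg2 and Slc7a2 were dim and their folds depended on the normalization. For Nos2 and Nos3 the higher means in MI mice did not pass the test. A probe was called when it differed by more than 2-fold with an adjusted p under 0.05 in limma (Benjamini-Hochberg, taken over the 34038 retained probes). By this rule 3 of the 9 measured members were called higher, against 4.06% of all 15156 genes, and 0 were called lower, against 0.541%. At any fold, 4 of the 9 passed the adjusted p in the upward direction, the fourth being Ass1, against 7.74% of all genes. In 4 of the 9 (Gch1, Arg1, Arg2 and Slc7a2) every MI mouse was above every sham-operated mouse, which was the case for 9.45% of all genes. The median log2 fold change was 0.73 over the 9 members and 0.07 over all genes. Arg2 and Slc7a2 were well above background on all 4 arrays of MI mice and on only 1 array of sham-operated mice, and were retained through the MI mice, so counts over the retained members carry this selection.

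**Figure D1:**
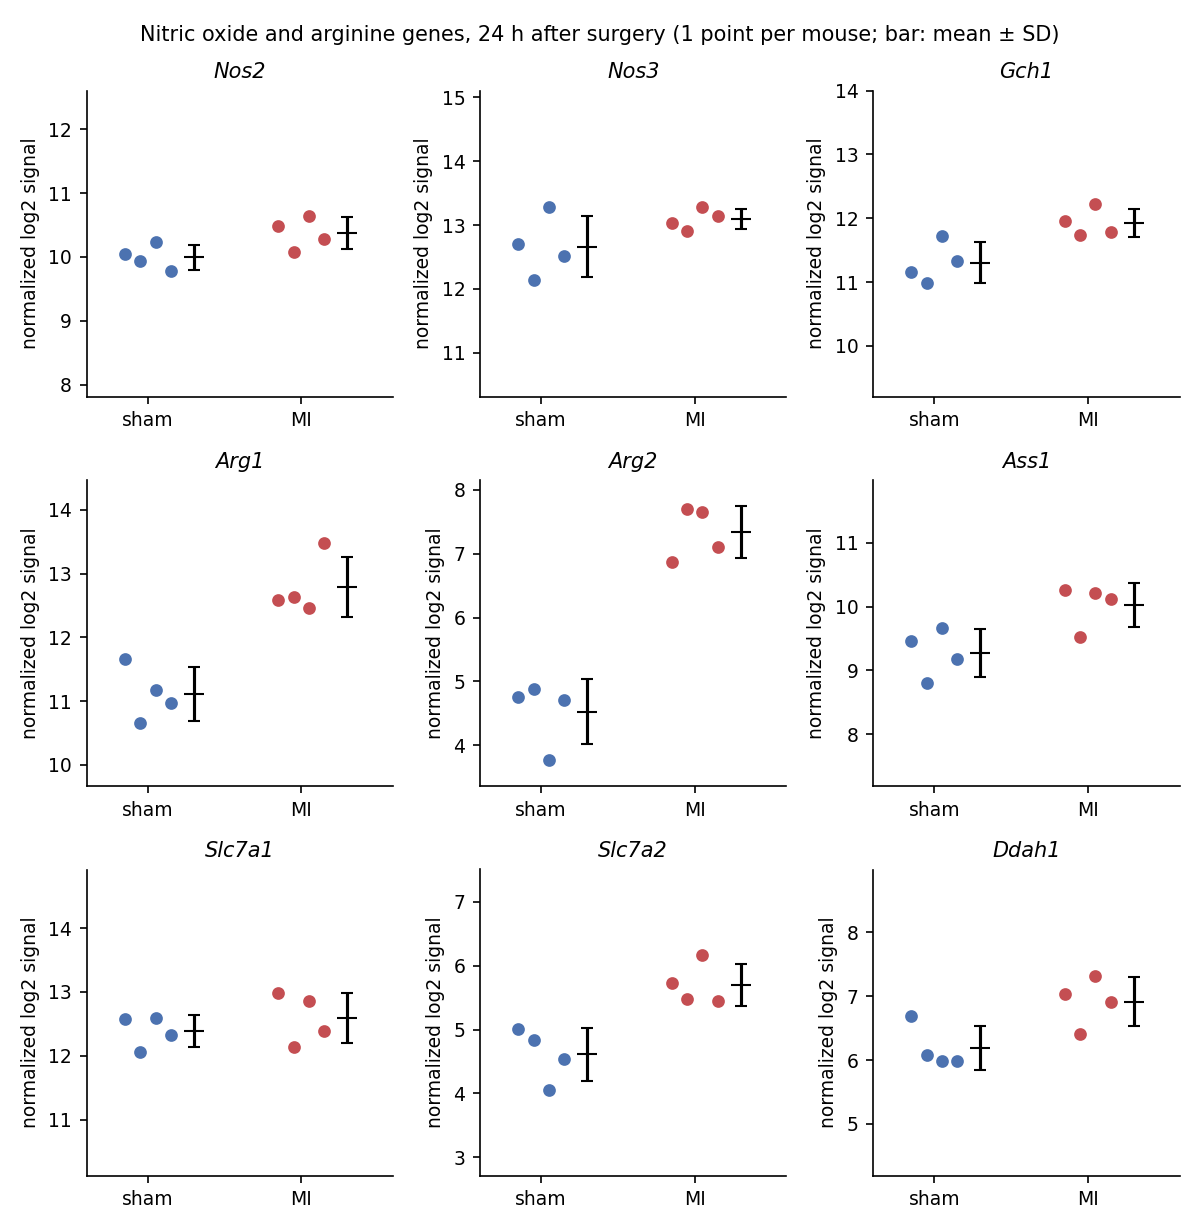
Normalized log2 signal (vertical axis, of the same span in every panel) of the 9 measured genes in sham-operated mice (blue) and MI mice (red), 24 hours after surgery. Each point is 1 mouse and the bars give mean ± SD (n = 4). The groups are apart for Arg1, Arg2, Slc7a2 and Gch1, and overlap for the other 5.

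The sequences upstream of 2 members are shown first: Ass1 is the member with a window that passed the adjusted p, and Slc7a1, which did not pass it, is the one with a match to a searched motif among the 5 members that had a window. The 3 called members, Arg1, Arg2 and Slc7a2, were not searched. The windows are the 250 bases before the annotated gene start in RefSeq on GRCm38.p6, written 5′ to 3′ on the strand of the gene. Capitals mark the AP-1 letters TGACTCA. The Ass1 window is chr2:31470020-31470269, plus strand, with 75.6% G and C. The Slc7a1 window is chr5:148399905-148400154, minus strand, with 62.4% G and C.
Ass1: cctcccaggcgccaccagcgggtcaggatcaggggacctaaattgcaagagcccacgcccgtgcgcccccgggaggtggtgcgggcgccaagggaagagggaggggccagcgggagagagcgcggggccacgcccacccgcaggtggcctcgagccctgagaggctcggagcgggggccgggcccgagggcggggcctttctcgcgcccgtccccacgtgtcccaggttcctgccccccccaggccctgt
Slc7a1: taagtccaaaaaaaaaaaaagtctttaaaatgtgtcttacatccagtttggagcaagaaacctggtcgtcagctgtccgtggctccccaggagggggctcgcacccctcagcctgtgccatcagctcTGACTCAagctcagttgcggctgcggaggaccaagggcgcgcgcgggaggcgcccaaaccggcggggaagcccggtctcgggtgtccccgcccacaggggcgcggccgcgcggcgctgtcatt

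Windows were found for Nos1, Gch1, Ass1, Slc7a1 and Ddah1, with 6 windows in all since Slc7a1 has a pair. Both strands of the 250 bases before and 50 bases after each start were searched for the letters of 5 motifs. The AP-1 letters TGANTCA were found in 1 of the 6 windows, at position -123 from the start of Slc7a1, and in 7.81% of all 32851 windows. The letters GGGANTNTC, a part of the NF-kB motif, were found in 0 of the 6 windows and in 3.49% of all windows. The hypoxia response letters TACGTG (3.23% of all windows), the cyclic AMP response letters TGACGTCA (1.79%) and the C/EBP letters TTGCNNAA (10.8%) were likewise in 0 of the 6. Other spellings of these motifs were not searched. No motif matches overlapped in the members' windows. A match describes letters in a window and not a site in use.

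Nitric oxide synthases come in a neuronal form (Nos1), an inducible form known from activated immune cells (Nos2) and an endothelial form (Nos3). The Nos2 probe (A_55_P2158741, transcript NM_010927, 2 spots per array) was well above background on all 8 arrays. Its log2 signal was 10.49, 10.09, 10.65 and 10.28 in MI mice 1 to 4, and 10.04, 9.93, 10.24 and 9.77 in sham-operated mice 1 to 4. Sham-operated mouse 3 lay above MI mouse 2, so the groups overlapped. The MI mean was 10.38 ± 0.24 (SD, n = 4) and the SD of the sham-operated mice was 0.20, with a log2 fold change of 0.38 with a 95% confidence interval from -0.05 to 0.81 (adjusted p = 0.331 in limma, p = 0.0571 in an exact two-sided permutation test). In linear terms the interval ran from 0.964-fold to 1.75-fold.

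Nos3, known from endothelium, differed by about as much as Nos2. Its brightest probe (A_55_P2034027, NM_008713) gave 13.04, 12.91, 13.28 and 13.15 in MI mice and 12.71, 12.14, 13.28 and 12.52 in sham-operated mice. Sham-operated mouse 3 reached the level of the highest MI mouse, and the other 3 sham-operated mice lay below all MI mice. The means of 13.09 ± 0.16 and 12.66 ± 0.48 differed by 0.43 (95% confidence interval -0.04 to 0.90, limma adjusted p = 0.306, exact permutation p = 0.171). A second Nos3 probe, spotted 10 times on each array, gave a log2 fold change of 0.62 (SE 0.23, limma adjusted p = 0.109). The first probe's log2 fold change was 0.64 without sham-operated mouse 3 (limma adjusted p = 0.0967) and 0.26 without sham-operated mouse 2 (limma adjusted p = 0.658). Over 8 fits with 1 mouse left out and 14 other alternatives, neither Nos2 nor Nos3 passed the adjusted p in any.

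The Nos1 probe (A_55_P2133795, NM_008712) was not retained. It was not well above background on any array of MI mice, where its linear signals were 4.02, 3.11, 5.49 and 3.29. In sham-operated mice the signals were 3.32, 2.92, 56.0 and 21.8, and the 2 brighter arrays, of mice 3 and 4, were well above background. The sham mean was 1.66-fold higher than the background bound of the MI arrays. This ratio rests on those 2 mice, since the other 2 sham-operated mice were as dim as the MI mice. The 2 dim sham-operated mice entered the mean at their measured signals, so the ratio is not a lower limit. With no filter on detection the log2 fold change was -0.92 and did not pass the test (limma adjusted p = 0.489).

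Gch1 encodes GTP cyclohydrolase 1, the first and rate-limiting enzyme of tetrahydrobiopterin synthesis. Its brightest probe (A_55_P2106175, NM_008102) read 11.95, 11.74, 12.22 and 11.79 in MI mice and 11.15, 10.99, 11.73 and 11.34 in sham-operated mice. Every MI mouse was above every sham-operated mouse, with the gap at its narrowest between MI mouse 2 and sham-operated mouse 3. The log2 fold change was 0.62 (95% confidence interval 0.18 to 1.07, exact permutation p = 0.0286, the smallest that 4 against 4 mice can give), and the limma adjusted p of 0.0800 missed the threshold. A second, dimmer Gch1 probe (A_52_P298002) differed by only 0.15 (limma adjusted p = 0.759), so the probes of this gene disagree. Under alternative settings the brightest probe passed the adjusted p in 5 of 14, and in 1 of 8 fits with a mouse left out. Among the 5 was significance analysis of microarrays, the test that the study used, with the change still under 2-fold.

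The arginases carried the largest differences of the set. Arg1 encodes the cytosolic arginase, abundant in liver and induced in some myeloid cells. Its probe (A_51_P303160, NM_007482) was well above background on all arrays, with log2 signals of 12.58, 12.64, 12.46 and 13.47 in MI mice. In sham-operated mice the values were 11.66, 10.66, 11.17 and 10.97. MI mouse 4 stood highest, the other 3 MI mice lay close together, and the lowest MI mouse was still above the highest sham-operated mouse. In linear scanner signal the MI mice spanned 5000 to 13265 and the sham-operated mice 1600 to 3845. The means of 12.79 ± 0.46 and 11.11 ± 0.42 differed by 1.67 on the log2 scale (SE 0.25), a fold change of 3.19 with a 95% confidence interval from 2.24 to 4.54 (limma adjusted p = 3.25e-05, exact permutation p = 0.0286). Within the 2 rows of arrays the log2 fold changes were 1.45 and 1.90. The call held in all 8 fits with a mouse left out (log2 fold change 1.45 to 1.86) and in 13 of 14 other alternatives, the exception being an unmoderated test (adjusted p = 0.0643), while significance analysis of microarrays, the test that the study used, made the call. Beside these levels, the summed neutrophil level of MI mice 1 to 4 was 239930, 313750, 315940 and 203840, and their summed monocyte and macrophage level was 21240, 18492, 24769 and 27588. MI mouse 4, highest in Arg1, was thus the lowest MI mouse by the first sum and the highest by the second, and the part of either cell type in the Arg1 level was not tested.

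Arg2 encodes the mitochondrial arginase, found in many tissues outside the liver. Its probe (A_52_P374897, NM_009705) gave log2 signals of 6.88, 7.71, 7.66 and 7.11 in MI mice and 4.75, 4.89, 3.76 and 4.70 in sham-operated mice. The groups were far apart, and sham-operated mouse 3 was the lowest of all. The linear signals were 97.7, 245, 175 and 144 in MI mice against 16.3, 11.7, 7.05 and 12.7 in sham-operated mice, so that the signal of every MI mouse was well above background and that of only 1 sham-operated mouse was. The log2 fold change was 2.81 (SE 0.25), or 7.02-fold with a 95% confidence interval from 4.91 to 10.1 (limma adjusted p = 1.39e-08, exact permutation p = 0.0286). The probe was retained through the MI mice, so the interval and the p-values carry this selection. In the rows of arrays the log2 fold change was 2.47 and 3.15. The call held with each mouse left out (2.56 to 2.97) and in 12 of the 13 other alternatives that retained the probe. Among these 12 are the authors' own values and spots below background set to missing (2.585 in both). These settings hold only 1 sham-operated mouse for this probe.

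The size of the Arg2 change was less certain than its direction. The constants added to the signals were between 3.16 and 19.6 in the authors' normalization, close to the sham signals of this probe. A refit of the spike-in model with constants of 166 to 256 gave a log2 fold change of 0.71 (limma adjusted p = 0.00464), which is under 2-fold. The normexp background correction gave 1.19, scaling to the 75th percentile 3.48 and spike-in scaling with no constant 3.61. The groups of Arg2 kept their order in each of these settings.

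**Figure D2:**
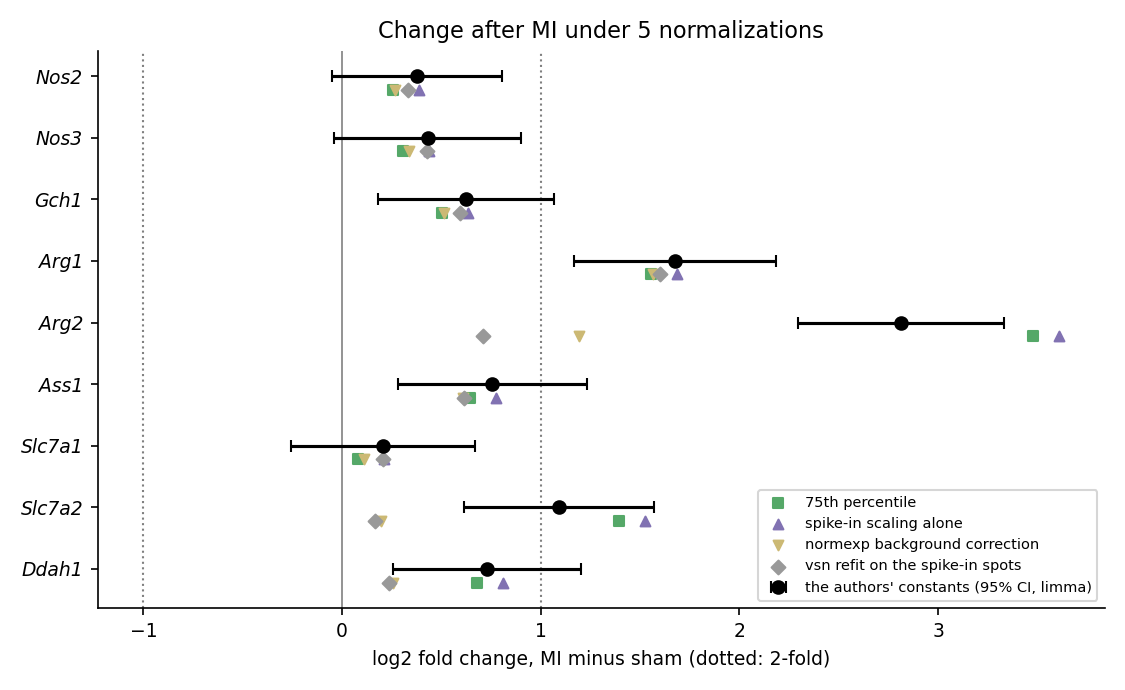
Log2 fold change of MI against sham-operated mice (horizontal axis) for the 9 measured genes under 5 normalizations. Black circles with bars are the values of the report with 95% confidence intervals from limma, coloured symbols are the 4 alternatives, and dotted lines mark 2-fold. Symbols of the bright genes lie close together, whereas those of the dim genes Arg2 (0.71 to 3.61), Slc7a2 and Ddah1 spread widely.

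Ass1, argininosuccinate synthase, joins citrulline and aspartate in the first of the steps that rebuild arginine from citrulline. With its brightest probe (A_55_P2004781, NM_007494) the log2 signals were 10.27, 9.52, 10.21 and 10.12 in MI mice and 9.45, 8.80, 9.66 and 9.18 in sham-operated mice. MI mouse 2 lay among the sham-operated mice and the other 3 MI mice were above them all. The log2 fold change of 0.76 (1.69-fold, SE 0.23) passed the adjusted p without reaching 2-fold (limma adjusted p = 0.0419, exact permutation p = 0.0571). A second probe of the gene (A_55_P2143070) differed by 0.91 with groups that did not overlap (limma adjusted p = 0.0126). The adjusted p of the first probe stood close to the threshold, under it in 3 of 8 fits with a mouse left out and in 9 of 14 other alternatives.

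Arginine enters cells through the cationic amino acid transporters, of which Slc7a1 encodes CAT-1, present in most tissues, and Slc7a2 encodes CAT-2, known to be induced together with inducible nitric oxide synthase or arginase in activated macrophages. The Slc7a1 probe (A_66_P106661, NM_007513), whose upstream window is printed above, read 12.98, 12.14, 12.85 and 12.40 in MI mice and 12.58, 12.06, 12.59 and 12.33 in sham-operated mice. Its groups were intermixed. The log2 fold change was 0.20, with a 95% confidence interval from -0.26 to 0.67 (limma adjusted p = 0.679, exact permutation p = 0.400), so a rise above 1.59-fold lay outside the interval.

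The Slc7a2 probe (A_52_P77764, NM_007514) was dim, with log2 signals of 5.73, 5.47, 6.16 and 5.45 in MI mice and 5.01, 4.84, 4.06 and 4.54 in sham-operated mice. All MI mice were above all sham-operated mice. In linear signal the MI mice read 35.1, 36.6, 59.0 and 34.0 and the sham-operated mice 22.6, 10.8, 9.35 and 10.3, with only 1 sham-operated mouse well above background. The log2 fold change was 1.09 (2.13-fold, 95% confidence interval 1.53 to 2.97, SE 0.23, limma adjusted p = 0.00279, exact permutation p = 0.0286). As with Arg2, the probe was retained through the MI mice, and the interval and p-values carry this selection. The rows of arrays differed, with 0.67 and 1.51. The call was lost without MI mouse 3 (0.94) and without sham-operated mouse 3 (0.91), where the change fell under 2-fold with the adjusted p still under 0.05. It was made in 7 of 13 other alternatives. The spike-in refit (0.16, limma adjusted p = 0.305) and the normexp correction (0.19, limma adjusted p = 0.300) did not make it. Neither did no filter on detection (limma adjusted p = 0.0582) or an unmoderated test (adjusted p = 0.122). Nor did the authors' own values or spots below background set to missing (0.69 in both), which hold 1 sham-operated mouse for this probe. Significance analysis of microarrays, the test that the study used, made the call on the values used here, which keep spots below background. The study removed such spots before that test.

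Ddah1 hydrolyses ADMA. Its brightest probe (A_51_P110471, NM_026993, 10 spots per array) gave 7.03, 6.41, 7.32 and 6.91 in MI mice and 6.69, 6.09, 5.99 and 5.99 in sham-operated mice. The groups overlapped, as sham-operated mouse 1 stood above MI mouse 2 and apart from the other sham-operated mice. The log2 fold change of 0.73 (1.66-fold, SE 0.23) just missed the threshold (limma adjusted p = 0.0520, exact permutation p = 0.0571), and the rows of arrays gave 0.33 and 1.13. Over the alternatives it passed the adjusted p in 7 of 14 and in 2 of 8 fits with a mouse left out, without sham-operated mouse 1 (0.90, limma adjusted p = 0.0158) and without MI mouse 2 (0.90, limma adjusted p = 0.0160), and the fold change was 0.23 with the spike-in refit and 0.26 with normexp. Among the 7 was significance analysis of microarrays, the test that the study used, with the change still under 2-fold. The gene's other probe (A_51_P307168) differed by 0.90 with no overlap of the groups (limma adjusted p = 0.00543).

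Since arginases and synthases share a substrate, their values were also set against each other within each array, where a scaling of the array cancels. These 6 pairs were chosen after the values of the members had been seen, so the shifts are a description, with no test. The log2 difference between Arg1 and Nos2 was larger in MI than in sham-operated mice by 1.30, and that between Arg1 and Nos3 by 1.24. For Arg2, whose probe was retained through the MI mice, the shifts were 2.43 against Nos2 and 2.38 against Nos3. The groups were apart in these 4 pairs. The 2 pairs with Arg1 kept their size with the spike-in refit (1.27 and 1.17), while those with Arg2 fell to 0.38 and 0.28, with groups that then overlapped. The shift of Slc7a2 against Slc7a1 was 0.89, with overlapping groups, and -0.04 with the refit. The shift of Arg2 against Arg1 was 1.14 and turned to -0.89 with the refit, so the order of the 2 arginases by fold change was not settled.

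**Figure D3:**
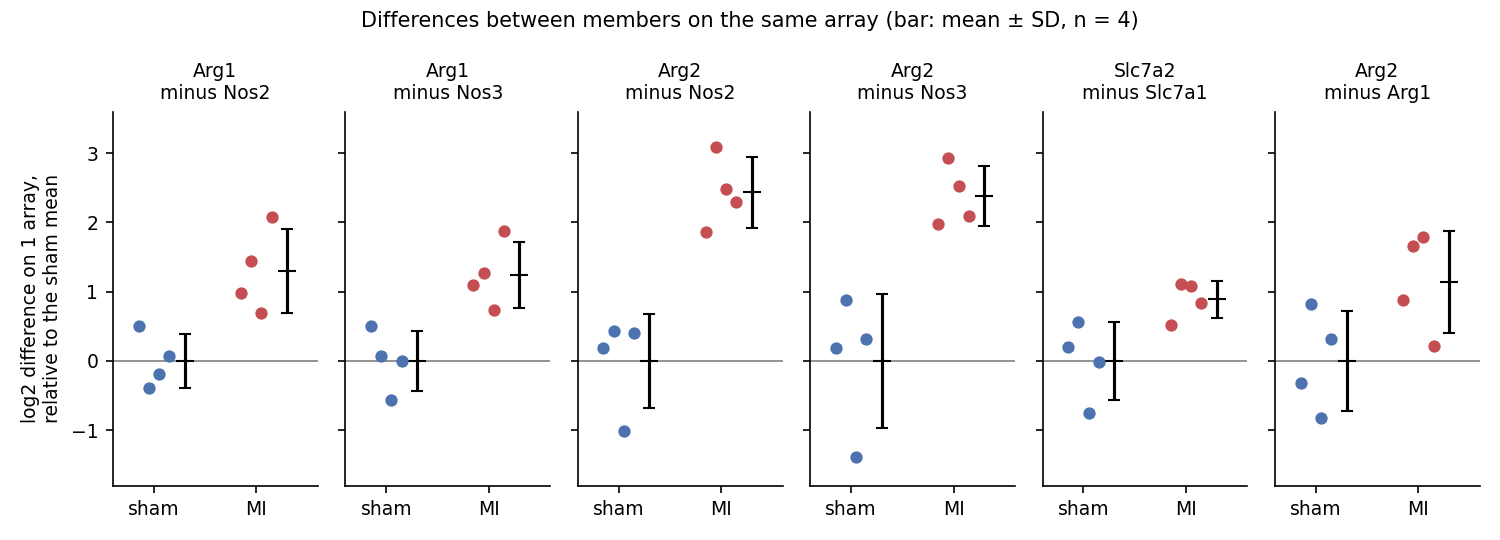
Log2 difference between 2 genes on the same array, relative to the mean of the sham-operated mice (vertical axis), for 6 pairs in sham-operated (blue) and MI mice (red). Each point is 1 mouse and bars give mean ± SD (n = 4). The 4 pairs of an arginase with a synthase show no overlap, with shifts from 1.24 to 2.43, and the last 2 pairs overlap.

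Around these members, 53 other genes of the pathway were listed, of which 46 had a retained probe. Of these, 1 was called higher and 0 lower at 2-fold, against 4.06% and 0.541% of all genes, and 5 were higher at any fold, against 7.74%, and 0 lower. The list's median log2 fold change was 0.10, against 0.07 for all genes. Means were higher in MI mice for 28 of the 46 and for 8892 of all 15156 genes, so these counts were near those of all genes. The called gene was Aldh18a1, a mitochondrial enzyme that makes the precursor of proline and ornithine from glutamate, whose mean rose from 6.83 ± 0.38 to 7.89 ± 0.36 (SD, n = 4 each, log2 fold change 1.06, SE 0.23, limma adjusted p = 0.00338). Its groups did not overlap, and it passed 2-fold in 5 of 8 fits with a mouse left out and in 9 of 14 other alternatives. Odc1, ornithine decarboxylase, which opens the route from ornithine to polyamines, rose by 0.92 (limma adjusted p = 0.00372) with groups apart. Oat, which turns ornithine towards proline and glutamate, differed by -0.05 (limma adjusted p = 0.933).

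Of the other arginine transport genes, 3 of 6 were measured and all 3 had higher means in MI mice. Slc3a2, the heavy chain shared by several amino acid exchangers, rose by 0.94 (12.85 ± 0.45 to 13.78 ± 0.25, limma adjusted p = 0.00998), while Slc7a6 (0.54, limma adjusted p = 0.134) and Slc7a7 (0.36, limma adjusted p = 0.450), light chains that exchange cationic amino acids, did not pass the test. Among 13 partners and regulators of the synthases, 12 had higher means (median log2 fold change 0.26), against 8892 of all 15156 genes (median 0.07). Of the 13, 2 passed the adjusted p, both upward, against 7.74% of all genes. Over the alternatives 8 to 12 of the 13 had higher means and the median ran from 0.05, with normexp, to 0.36, without MI mouse 2. Hsp90aa1, a chaperone that binds the endothelial synthase, rose by 0.78 (limma adjusted p = 0.0200), and Cav3, the muscle caveolin, a known binding partner of the synthases, by 0.73 (limma adjusted p = 0.0271). In both genes the groups were apart, but each passed the adjusted p in only 4 of 8 fits with a mouse left out, and Hsp90aa1 in 10 and Cav3 in 11 of 14 other alternatives. Odc1, Oat, Cav3, Slc7a6 and Slc7a7 were named after their values had been seen.

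The remaining groups held no gene that passed the adjusted p. For comparison with the counts below, means were higher in MI mice for 8892 and lower for 6264 of all 15156 genes. The 6 genes of tetrahydrobiopterin synthesis and recycling other than Gch1 all had lower means in MI mice (median log2 fold change -0.20). Between 4 and 6 of the 6 were lower over all alternatives, and the median ran from -0.33 with the 75th percentile to -0.07 without MI mouse 2, where the fewest were lower. Of 6 measured cyclic GMP genes 5 had lower means (median -0.35), and Gucy1a2, a subunit of the soluble guanylyl cyclase that senses nitric oxide, was the furthest, at -0.65 (limma adjusted p = 0.0816). The median of the group ran from -0.48 without sham-operated mouse 2 to -0.20 with the spike-in refit, and was -0.21 without MI mouse 2, with 4 of the 6 lower. Gucy1a2 was called lower when arrays were scaled to the 75th percentile or quantile-normalized. Of 8 arginine methylation and ADMA genes 7 had higher means (median 0.36), led by the protein arginine methyltransferase Prmt6 at 0.70 (limma adjusted p = 0.0568). Slc25a15, the mitochondrial ornithine carrier, had the largest difference of the 3 measured genes of the urea cycle and citrulline (0.43, limma adjusted p = 0.276), and Adh5, which breaks down S-nitrosoglutathione, differed by -0.09 (limma adjusted p = 0.864).

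**Figure D4:**
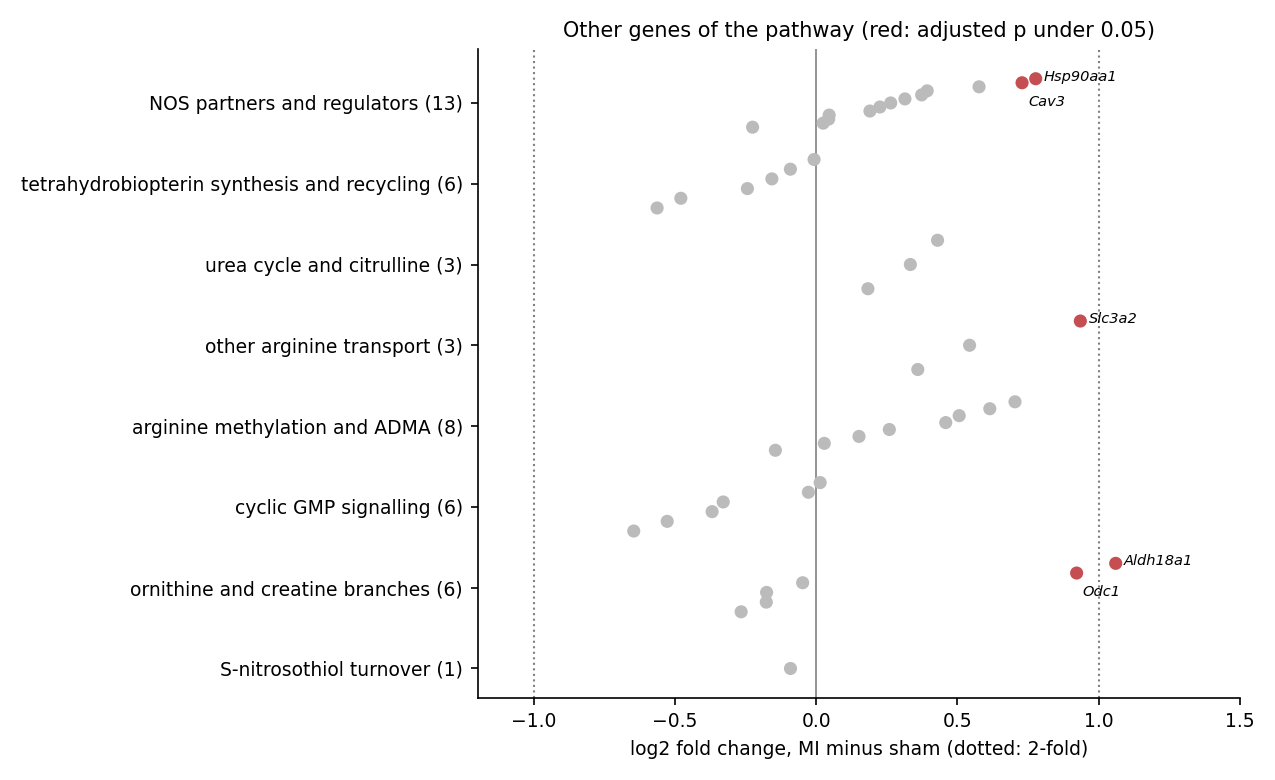
Log2 fold change of MI against sham-operated mice (horizontal axis) for the 46 measured genes of the wider pathway, 1 point per gene, in 8 groups with the number of genes in brackets. Red points passed an adjusted p under 0.05 in limma, grey points did not, and dotted lines mark 2-fold. The 5 red points are all on the higher side, and only Aldh18a1 is beyond 2-fold.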

How the data were processed

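RNA (200 ng per mouse) was labeled in 1 colour. The deposited scanner output holds, per the file headers, intensities that Feature Extraction 11.0.1.1 had cleared of local background and spatial trends, with flags for spots well above background. The authors deposited log2 values normalized between arrays on the spike-in probes with limma and vsn. Setting these against the intensities gave the constant and shift of each array, which were applied here to every spot that was neither a control nor flagged as an outlier. Spots of a probe were averaged, and 34038 probes well above background on at least 4 of 8 arrays were kept. An earlier description of these data used a refit of the model with constants of 166 to 256, near the median signal of 205.8, which compresses dim probes, so the refit is an alternative here.

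Groups came from the sample labels. The difference between MI and sham-operated mice was fitted with limma 3.58.1 under R 4.3.3 and no covariates, with Benjamini-Hochberg adjustment over all retained probes, and single values by exact permutation of the mice (scipy 1.17.1). Python 3.11.15, numpy 2.4.6, pandas 2.3.3 and matplotlib 3.10.9 were also used. Tested on simulated data for 33865 probes with 200 changed 4-fold, limma recovered 95.0%, with 3 false calls. The simulated noise was independent between probes, with no deviations shared by an array and no changes near 2-fold. The simulation therefore does not gauge the calls reported here. Gene names came from RefSeq transcripts (GRCm38.p6). Alternatives were other normalizations (the spike-in refit, spike-in scaling alone, the 75th percentile, quantiles, normexp on median intensities with an offset of 50, and the authors' values), other detection filters, the mean over probes, significance analysis of microarrays (the test of the study's methods), an unmoderated test, fits with the array row or the replicate number as a block, and each mouse left out. The members, gene lists and tests were chosen with earlier results of these data known. Named were all members, every called pathway gene and the gene of largest change in each pathway group, beside those said to be chosen later, except for 1 gene that is not reported here. The number of arrays limits the precision.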

Additional observations from a re-analysis of the deposited data

Results flagged for a closer look

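Of 18 sets of 4 values tested for a lone value far from the others (9 members in each of 2 groups), 2 held one, and chance gives about 1 in 20 such sets. The Arg2 level of sham-operated mouse 3, 3.76, lay below the other sham-operated mice, which read 4.70 to 4.89, by 0.835 of the whole range. The constant added to the signals of that array was 3.16, against 9.98 to 17.9 on the other sham arrays, and its linear Arg2 signal of 7.05 was also the lowest of the group. Its part in the low value was not tested. Without this mouse Arg2 was still called higher. The Ddah1 level of sham-operated mouse 1, 6.69, lay above the other sham-operated mice, which read 5.99 to 6.09, by 0.863 of the range.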

How the results depend on the processing

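None of the 9 measured members changed direction under any alternative. Direction could not change where only the test, a block or the detection filter differed, since the fold change was then the same. Of 200 member values under alternatives, 190 kept their direction and their side of the 2-fold call and 10 kept the direction but lost the call (Slc7a2 8 times, Arg1 and Arg2 once each). For the members that were not called, keeping their side means only that they stayed uncalled. At any fold, Ass1 lost the adjusted p in 5 of 8 fits with a mouse left out and 5 of 14 others, Gch1 gained it in 1 and 5, and Ddah1 in 2 and 7. The count of members called higher, 3, was 1 with the spike-in refit, with detection required on all 8 arrays and with an unmoderated test, and 2 to 3 with a mouse left out. The count at any fold, 4, was 2 with the refit, 2 with the authors' values, 2 with no filter on detection, 1 with the unmoderated test, and 3 to 5 with a mouse left out. It was 3 with spike-in scaling alone and with detection required on all 8 arrays, and 5 with the mean over probes. With the 75th percentile, quantiles, significance analysis of microarrays and the replicate block it was 6. Of the pathway genes, 0 in place of 1 were called higher with the refit, quantiles, normexp, no filter and the unmoderated test, and 2 with the mean over probes, with 0 to 2 when a mouse was left out, and 1 was called lower with the 75th percentile and with quantiles. Over all probes, 1046 higher calls became 320 with the refit, 421 with normexp and 571 with the unmoderated test (925 to 1321 with a mouse left out), and 138 lower calls became 13 with the refit, 401 with the 75th percentile, 459 with quantiles, 52 with no filter and 7 with the unmoderated test (58 to 249). Causes of these changes were not tested. By construction, the refit's larger constants compress dim probes and the filters change which probes enter the fit. The median log2 fold change of all retained probes was 0.12, and -0.02 after scaling to the 75th percentile, where 72.2% of the calls were higher in place of 88.3%.

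Replicate numbers are shared by the groups but were not taken to pair the mice. Deviations of same-numbered mice correlated at 0.01 to 0.29, over 0.1 in 3 of 4 pairs, and those of differently numbered mice at -0.33 to 0.23. Not every mouse correlated best with its own number. The arrays of same-numbered mice lay side by side in the same row of the slide. With a replicate block 3 members were called higher, and 6 passed the adjusted p at any fold, with Gch1 (adjusted p = 0.0173) and Ddah1 (adjusted p = 0.0424) added, and over all probes 3945 in place of 2144 were higher at any fold in limma.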
